A study of Homo sapiens with 11 samples.

Results

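The genes considered here carry or control the transcriptional response to cyclic AMP: the transcription factors CREB1, CREM and ATF1, the CREB coactivators CRTC1, CRTC2 and CRTC3, the kinase SIK1, the phosphodiesterases PDE4B and PDE4D, and the receptor GPR3. They were taken by name, through the gene symbol that the platform annotation gives to each probe. Of the 10 genes, 8 had at least 1 listed probe, out of 18836 genes with a listed probe in all, and these 8 were represented by 14 probes. ATF1 and CRTC3 had no listed probe and were not analysed here.

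The values came from Illumina HT12 beadchips hybridised with labelled RNA copies (cRNA) amplified from total RNA of HEK293T cells. This line derives from human embryonic kidney and takes up plasmid DNA readily. The cells had been transfected by lipofectamine with mutDFNA5, a cDNA of the deafness gene DFNA5 from which 1 exon is deleted (6 arrays), or with the wild-type cDNA, wtDFNA5 (5 arrays). All cells were of the same line, both groups received a plasmid, and no array of cells with an empty plasmid was used here, so every difference below is between the 2 constructs. The treatment text of the labels places the harvest at 6 h after transfection and the extraction text places RNA extraction at 12 h, and the study describes the replicates as biologically independent. DFNA5 is now named GSDME, and its probe had a normalized log2 signal of 8.05 ± 0.20 in mutDFNA5 cells (SD, n = 6) and 8.02 ± 0.22 in wtDFNA5 cells (SD, n = 5), a log2 difference of 0.03 (95% confidence interval -0.19 to 0.25; adjusted p = 0.908 by limma). The lowest detected signal was between 7.36 and 7.46 depending on the array. Whether this probe reads the transfected cDNA was not tested, so its values do not show how strongly either construct was expressed. Each array detected 14029 to 15443 of its 42000 probes, detection meaning a p under 0.01 against the negative control beads. Of 5 marker genes chosen for HEK293T cells, VIM and KRT18 were detected on all arrays, whereas PAX2, LHX1 and KRT8 were detected on none. Of 6 markers of leukocytes, endothelium and liver, none was detected on all arrays and 4 were detected on none. PECAM1 was detected on 5 of 6 mutDFNA5 and 4 of 5 wtDFNA5 arrays. For CD14, 1 probe was detected on 4 arrays of each group and another on none.

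Cyclic AMP is made by adenylyl cyclases when a receptor coupled to the stimulatory G protein is active, and is broken down by phosphodiesterases such as PDE4B and PDE4D. It releases the catalytic subunits of protein kinase A (PKA), which phosphorylate CREB1, CREM and ATF1, factors that bind the DNA motif called the cAMP response element, or CRE. The CRTC coactivators enter the nucleus and join CREB on that motif once salt-inducible kinases such as SIK1 no longer phosphorylate them, and SIK1 is itself a CREB target, as is the short repressor form of CREM. GPR3 is an orphan receptor that raises cyclic AMP without an added ligand, best known for holding oocytes in meiotic arrest.

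Sequence before the transcript start was read for the members, since several of them are themselves targets of CREB. The windows, from RefSeq on the human assembly GRCh38.p14, ran from 250 bases before to 50 bases after each annotated start, and 9 of the 10 members had at least 1 window (29 in all). CRTC2 had none. Both strands were searched for the whole CRE, TGACGTCA, and for its half-sites, TGACG or CGTCA. The whole CRE is its own reverse complement and contains both half-sites. Among all 35116 windows, 1.85% held a whole CRE and 24.6% held a half-site, and counted by gene, with any window of a gene, the shares were 2.25% and 28.4%. Among the members, GPR3 and CREM had a whole CRE, and GPR3, CREM, SIK1, CRTC3 and PDE4D had a half-site in at least 1 window, where CREM had 7 windows and PDE4D 8. No match was found in the windows of CREB1, ATF1, CRTC1 or PDE4B. The 3 sequences below show these matches in the 2 members whose groups did not overlap in the data below and in CREM, each 5′ to 3′ on the gene's strand with the whole CRE or the half-site in capitals. They are chr1:27392372-27392621 on the plus strand for GPR3, chr21:43427132-43427381 on the minus strand for SIK1, and chr10:35195822-35195889 on the plus strand for CREM. The GPR3 and SIK1 stretches end at the base before the start, and the CREM stretch lies before the last of 7 annotated starts, inside the gene.
GPR3: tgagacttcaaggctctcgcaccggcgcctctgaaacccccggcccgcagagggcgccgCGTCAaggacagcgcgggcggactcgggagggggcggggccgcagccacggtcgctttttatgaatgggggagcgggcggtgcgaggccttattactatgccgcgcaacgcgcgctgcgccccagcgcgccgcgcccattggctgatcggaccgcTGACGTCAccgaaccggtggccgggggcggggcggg
SIK1: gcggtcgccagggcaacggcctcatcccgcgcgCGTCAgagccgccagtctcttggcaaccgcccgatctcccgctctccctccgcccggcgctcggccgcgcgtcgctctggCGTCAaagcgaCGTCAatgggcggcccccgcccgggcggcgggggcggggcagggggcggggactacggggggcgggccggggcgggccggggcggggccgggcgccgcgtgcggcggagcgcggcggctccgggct
CREM: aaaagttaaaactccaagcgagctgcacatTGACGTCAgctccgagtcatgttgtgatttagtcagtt

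The GPR3 stretch held a CRE half-site with its first base at -191 and a whole CRE at -36, where -1 is the base before the start. SIK1 had half-sites at -217, -137 and -126. The CRE of CREM began at -50 relative to its internal start.

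**Figure D1:**
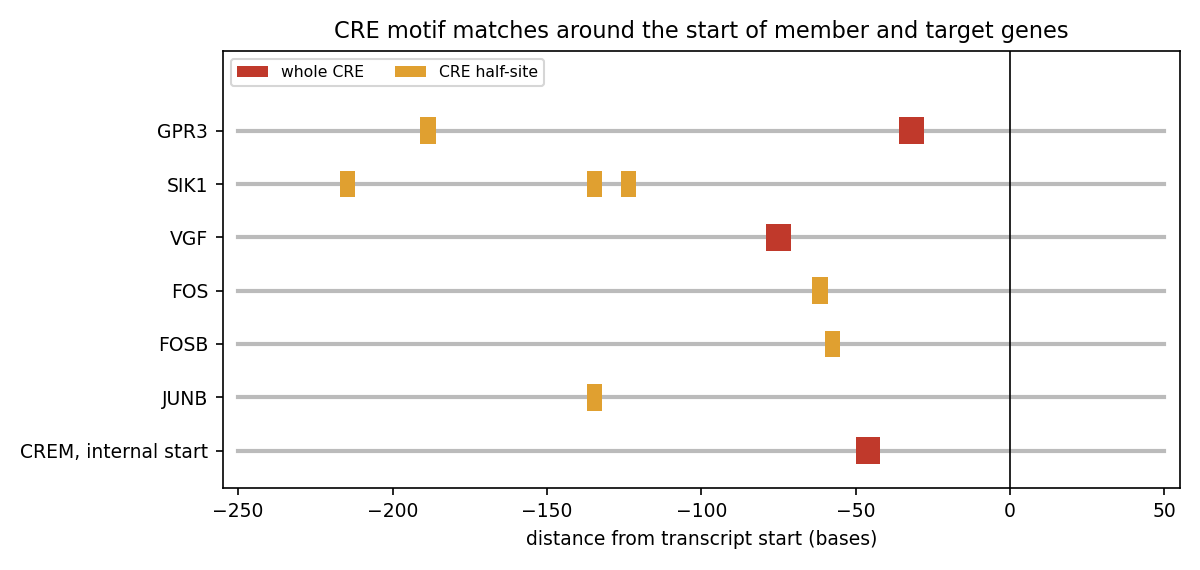
Matches to the whole CRE (red) and to CRE half-sites outside a whole CRE (orange) by distance in bases from the transcript start (vertical line), 1 row per gene, the grey bar being the window searched. The whole CRE lies at -36 in GPR3, -79 in VGF and -50 in the internal window of CREM, and SIK1 has 3 half-sites.

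Of the 14 member probes, 7 were detected on all 11 arrays, 2 on some and 5 on none. The probes detected on at least 5 arrays were tested, which left 7 member probes for 5 genes (GPR3, SIK1, CRTC1, CRTC2 and 3 probes of CREB1) among 14542 probes tested. After adjustment over all of these, 1 member probe, that of GPR3, was higher in mutDFNA5 cells (adjusted p under 0.05), against 3.91% of all tested probes, and 0 were lower, against 4.31%. In either direction this was 1 of 7 member probes, against 8.22% of all tested probes. At an unadjusted p under 0.05, limma also gave SIK1 and CRTC2 as higher and CREB1 probe ILMN_2334242 as lower, 4 of 7 member probes with GPR3, but 23.1% of all tested probes reached that level. The median log2 change of the 7 member probes was 0.18, and that of all tested probes was -0.0037. In 2 of the 7, GPR3 and SIK1, every mutDFNA5 array was above every wtDFNA5 array, as in 2.61% of all tested probes. The reverse order was found in 0 of the 7, against 3.2% of all tested probes (5.81% in either direction). The members were chosen with earlier results of these data known, so their shares beside those of all probes are no independent evidence.

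**Figure D2:**
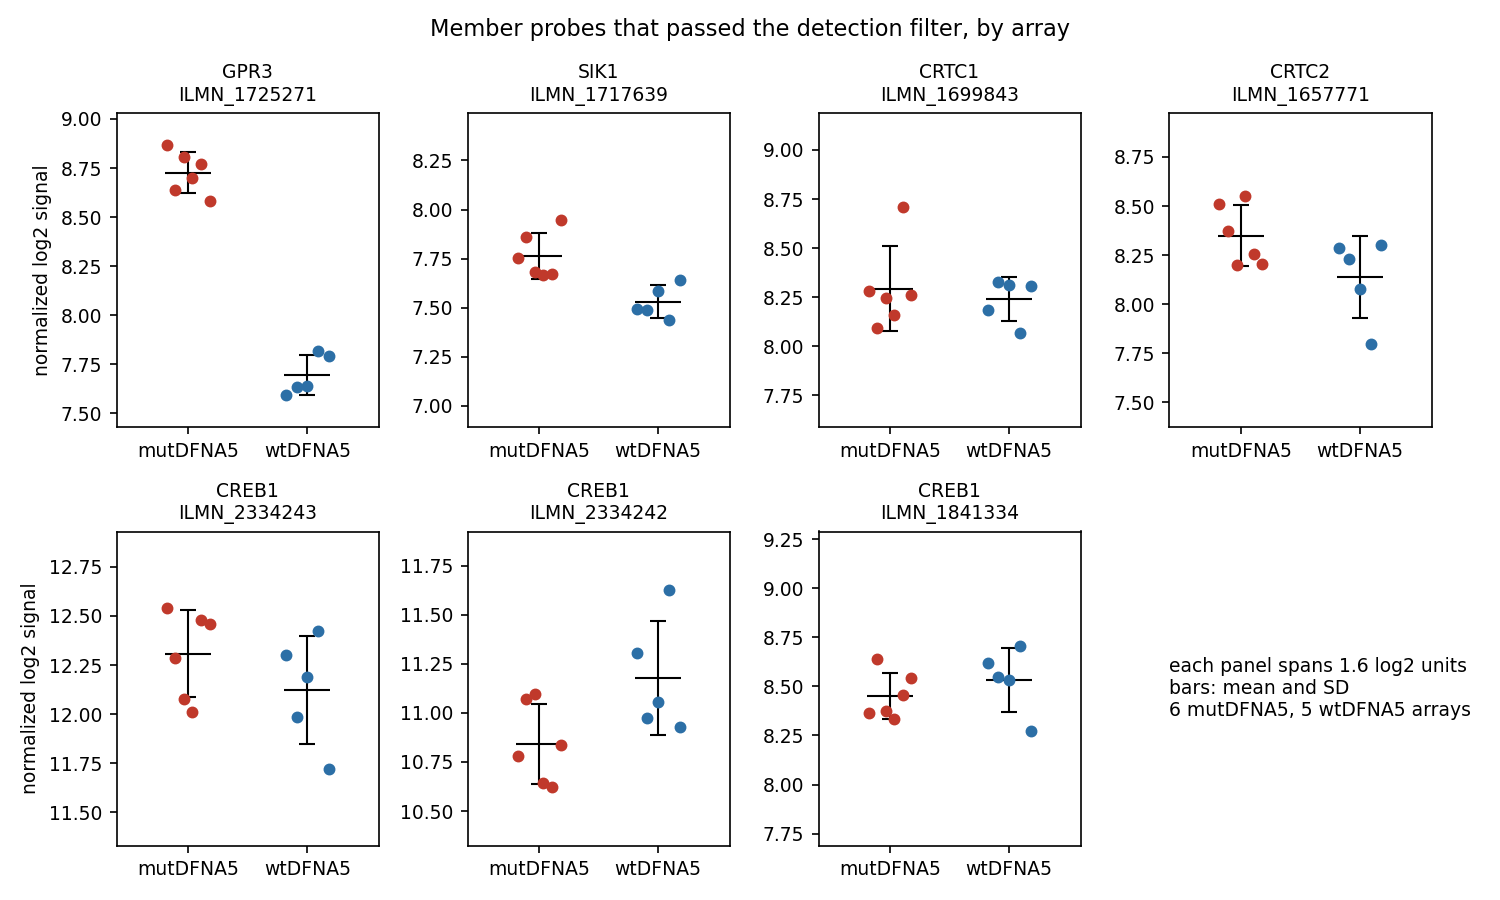
Normalized log2 signal (vertical axis) of each tested member probe on 6 mutDFNA5 arrays (red) and 5 wtDFNA5 arrays (blue), with the mean and SD in black; each panel spans the same range of log2 units. GPR3 separates the groups widely, SIK1 narrowly, and the groups overlap in CRTC1, CRTC2 and the 3 CREB1 probes.

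GPR3, the receptor, showed the largest change among the members, being about 2 times as high in mutDFNA5 cells. Its probe ILMN_1725271 (chromosome 1) had normalized log2 signals of 8.58 at the lowest, 8.74 at the median and 8.86 at the highest of the 6 mutDFNA5 arrays, against 7.60, 7.64, 7.64, 7.82 and 7.79 on wtDFNA5 arrays 1 to 5. Every mutDFNA5 array was therefore above every wtDFNA5 array, and the spread within either group was small beside the distance between them. In RNA from whole cultures, a change in each cell and a change in the number of cells that hold the transcript cannot be told apart. The means were 8.73 ± 0.11 in mutDFNA5 cells (SD, n = 6) and 7.70 ± 0.10 in wtDFNA5 cells (SD, n = 5), a log2 change of 1.03 (standard error 0.0767; 95% confidence interval 0.87 to 1.19) or 2.04-fold, with an adjusted p of 3.44e-09 by limma. Among the 14542 tested probes the GPR3 probe ranked 14 by p and 19 by size of change. It was detected on all 11 arrays, but the wtDFNA5 values lay close to the lowest detected signal, which was between 7.36 and 7.46 depending on the array. The study's methods name no background correction of these signals, and background left in them shrinks the changes of dim probes. With normexp background correction the log2 change of GPR3 was 1.71, or 3.27-fold.

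SIK1, the kinase that keeps CRTC coactivators out of the nucleus, was higher on every mutDFNA5 array than on any wtDFNA5 array, but its difference missed the threshold after adjustment. The probe ILMN_1717639 (chromosome 21) had log2 signals of 7.67 at the lowest, 7.72 at the median and 7.95 at the highest of the mutDFNA5 arrays, against 7.49, 7.49, 7.59, 7.44 and 7.64 on wtDFNA5 arrays 1 to 5. The groups did not overlap, with a gap of a few hundredths of a log2 unit between mutDFNA5 array 4 and wtDFNA5 array 5. The log2 difference was 0.23 (95% confidence interval 0.08 to 0.39), 1.18-fold, with an adjusted p of 0.0598 by limma. With normexp background correction it was 0.53 (adjusted p = 0.0328), and with probes detected on all 11 arrays it was 0.23 (adjusted p = 0.0484), both past the threshold. Under the other 16 alternatives it missed the threshold, with the highest adjusted p at 0.185 (log2 difference 0.20, with the replicate number as a block). The annotation of the human assembly also lists a near-identical entry, SIK1B, and signals of the 2 entries cannot be told apart here. Whether SIK1B is a separate gene was not tested.

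The coactivators CRTC1 and CRTC2, which carry CREB-dependent transcription once they are dephosphorylated, had overlapping groups. For CRTC2 (ILMN_1657771, chromosome 1) the mutDFNA5 arrays had 8.20 at the lowest, 8.31 at the median and 8.55 at the highest, and wtDFNA5 arrays 1 to 5 had 8.29, 8.23, 8.08, 7.80 and 8.30. The wtDFNA5 array 4 was the lowest of all 11, and 3 wtDFNA5 arrays fell within the mutDFNA5 range. The log2 difference was 0.21 (95% confidence interval 0.01 to 0.41; adjusted p = 0.183 by limma), 0.13 without wtDFNA5 replicate 4 (adjusted p = 0.426) and 0.34 with normexp background correction (adjusted p = 0.244). CRTC1 (ILMN_1699843, chromosome 19) had 8.09 at the lowest, 8.25 at the median and 8.71 at the highest of the mutDFNA5 arrays, against 8.19, 8.33, 8.31, 8.07 and 8.31 on wtDFNA5 arrays 1 to 5. Its highest value was mutDFNA5 array 5, and the other mutDFNA5 arrays lay among the wtDFNA5 ones. The difference was 0.05 (95% confidence interval -0.14 to 0.25; adjusted p = 0.793 by limma), and -0.03 (adjusted p = 0.862) without mutDFNA5 replicate 5.

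CREB1, the factor on which the pathway converges, was read by 3 tested probes that did not run the same way, and none passed the threshold. ILMN_2334242 was lower on average in mutDFNA5 cells, with log2 signals of 10.62 at the lowest, 10.81 at the median and 11.10 at the highest, against 11.31, 10.97, 11.05, 11.63 and 10.93 on wtDFNA5 arrays 1 to 5. The groups overlapped, with wtDFNA5 arrays 1 and 4 above every mutDFNA5 array. Its log2 difference was -0.34 (95% confidence interval -0.57 to -0.10; adjusted p = 0.0725 by limma). The adjusted p was 0.0450 without mutDFNA5 replicate 3 and 0.0492 without wtDFNA5 replicate 5, with differences of -0.39 and -0.40. It was 0.205 without wtDFNA5 replicate 4 (difference -0.22), the array with the highest value, and 0.285 with median scaling (-0.23).

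ILMN_2334243, which the annotation places on the same CREB1 transcript, had 12.01 at the lowest, 12.37 at the median and 12.54 at the highest of the mutDFNA5 arrays, against 12.30, 11.99, 12.19, 12.42 and 11.72 on wtDFNA5 arrays 1 to 5. The groups overlapped over most of their range, and the difference was 0.18 (95% confidence interval -0.05 to 0.42; adjusted p = 0.352 by limma). It was 0.085 without wtDFNA5 replicate 5, the lowest array, and 0.29 with median scaling, and missed the threshold in both. ILMN_1841334, annotated to a cDNA clone of CREB1, had 8.33 at the lowest, 8.42 at the median and 8.64 at the highest of the mutDFNA5 arrays and 8.62, 8.55, 8.53, 8.71 and 8.27 on the wtDFNA5 arrays. Here too the groups overlapped, with a difference of -0.08 (95% confidence interval -0.26 to 0.09; adjusted p = 0.604 by limma) that ran from -0.15 without wtDFNA5 replicate 5 to -0.041 without wtDFNA5 replicate 4 and was -0.0037 with median scaling.

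**Figure D3:**
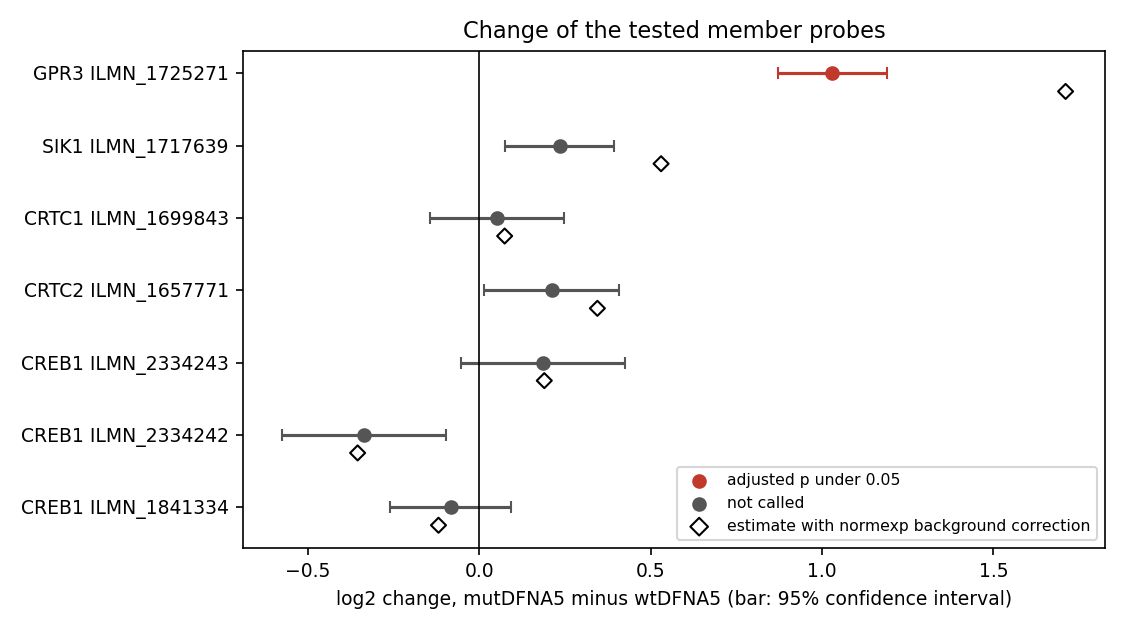
Log2 change, mutDFNA5 minus wtDFNA5, of the 7 tested member probes (circles, with 95% confidence intervals; red where the adjusted p is under 0.05), and the estimate after normexp background correction (open diamonds). GPR3 lies at 1.03 and moves to 1.71 with normexp, and the CREB1 probes lie on both sides of 0.

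Whether the CREB1 probes differed in response was tested on the difference between 2 probes within each array, by an exact permutation test over the arrays (two-sided, 462 arrangements, 3 pairs, smallest possible p 0.00216 for 1 arrangement). The log2 difference of ILMN_2334243 minus ILMN_2334242 was 1.47 ± 0.34 on mutDFNA5 arrays (range 0.98 to 1.86, SD, n = 6) and 0.95 ± 0.15 on wtDFNA5 arrays (range 0.79 to 1.13, SD, n = 5). It was thus larger by 0.52 on mutDFNA5 arrays (exact p = 0.0216, adjusted p = 0.0628 over the 3 pairs), with groups that overlapped. The other pairs changed by 0.27 (ILMN_2334243 minus ILMN_1841334; exact p = 0.0628, adjusted p = 0.0628) and by -0.25 (ILMN_2334242 minus ILMN_1841334; exact p = 0.0519, adjusted p = 0.0628). No pair passed after adjustment at the main setting. The first pair did with normexp background correction (exact adjusted p = 0.0357), with median scaling (0.0390) and without mutDFNA5 replicate 3 (0.0238).

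**Figure D4:**
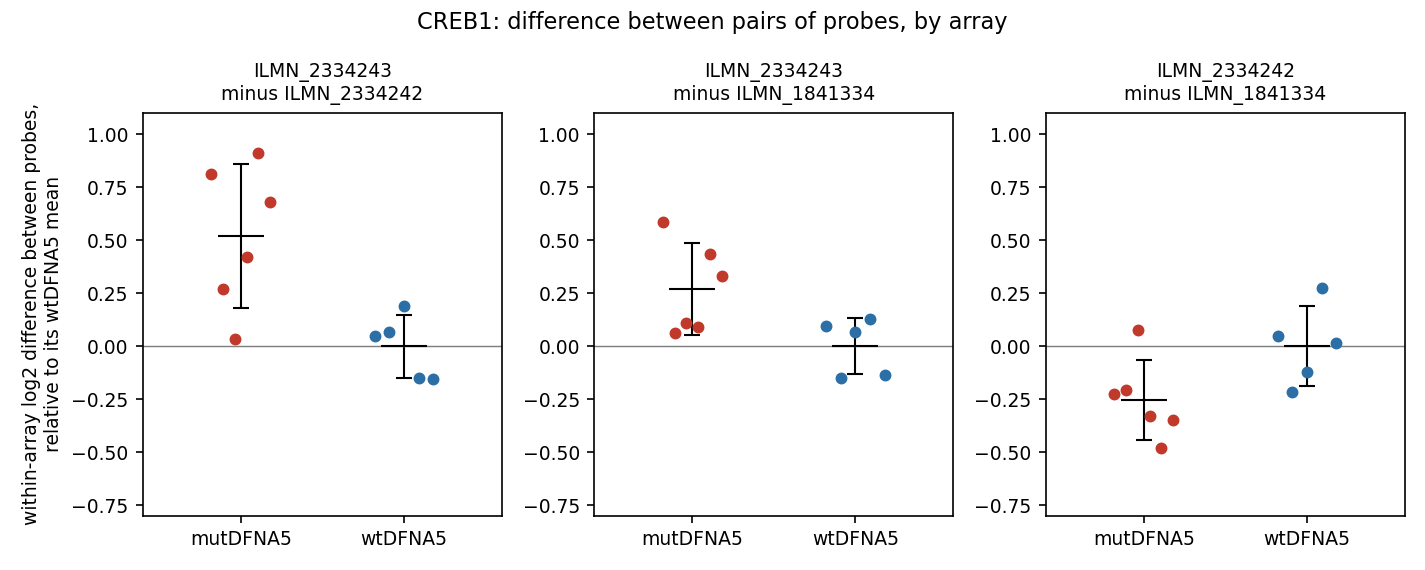
Within-array log2 difference between 2 CREB1 probes, shown relative to its wtDFNA5 mean (vertical axis), on 6 mutDFNA5 arrays (red) and 5 wtDFNA5 arrays (blue), with mean and SD in black, 1 panel per pair. The mutDFNA5 mean is shifted by 0.52, 0.27 and -0.25 in the 3 panels, and the groups overlap in each.

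The remaining 7 member probes were too dim to test, which bounds their signals near the background and says nothing of absence. CREM, whose CRE is printed above and whose short form represses CREB targets, was detected on 0 of 6 mutDFNA5 arrays (6.91 to 7.31) and on 0 of 5 wtDFNA5 arrays (6.86 to 7.11). The 4 probes of PDE4B, a phosphodiesterase that breaks down cyclic AMP, were detected on no array, with log2 signals of 6.76 to 7.36 in mutDFNA5 cells and 6.77 to 7.29 in wtDFNA5 cells. PDE4D, its relative, was detected on 2 of 6 mutDFNA5 arrays (7.18 to 7.66) and on 2 of 5 wtDFNA5 arrays (7.23 to 7.48). These ranges overlapped for each of the 3 genes. A further CREB1 probe, ILMN_2382758, was annotated to a different RefSeq transcript of the gene. It was detected on 0 of 6 mutDFNA5 arrays (6.77 to 7.26) and on 1 of 5 wtDFNA5 arrays (7.04 to 7.38).

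The genes whose signals followed GPR3 most closely over the 11 arrays were JUNB (Pearson r = 0.985), CITED1 (r = 0.982) and EGR1 (r = 0.981). JUNB and EGR1 are transcription factors of the immediate early response, and CITED1 is a coactivator that binds CBP and p300. These values are a description: the points share their group, and all 3 genes were higher in mutDFNA5 cells (log2 changes of 1.48, 1.14 and 1.82; adjusted p by limma 6.05e-12, 4.66e-10 and 5.68e-13). Once each array was set against its own group mean, the correlations with GPR3 were 0.44, 0.38 and 0.26, and other genes came first: ETFB (0.941), PSMB6 (0.912) and MACROH2A1 (0.901). These were the highest values picked from all tested probes on only 11 arrays, so they too are a description. Without that step, their r with GPR3 was -0.62, -0.02 and 0.04. ETFB was lower in mutDFNA5 cells (log2 change -0.34; adjusted p = 0.0237 by limma), whereas PSMB6 and MACROH2A1 were not called.

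The other genes of the pathway were read in 5 lists, each gene by its brightest tested probe, where 4.05% of all 9653 tested genes were higher and 4.92% were lower (8.97% in either direction). Among 21 known targets of cyclic AMP and CREB, 10 were tested, of which 6 were higher in mutDFNA5 cells and 0 lower, with a median log2 change of 0.48 against -0.0055 for all tested genes. FOSB, a subunit of the AP-1 transcription factor, averaged 9.54 ± 0.10 in mutDFNA5 cells (SD, n = 6) and 7.96 ± 0.17 in wtDFNA5 cells (SD, n = 5), 2.99-fold (log2 change 1.58; adjusted p = 6.05e-12 by limma). JUNB and FOS, likewise AP-1 subunits, were 2.78-fold and 2.30-fold higher (adjusted p = 6.05e-12 and 9.47e-09). VGF, a secreted neuroendocrine protein, was 1.75-fold higher (adjusted p = 1.05e-06). GEM and NR4A2 were the other 2 called, with log2 changes of 0.63 and 0.32 (adjusted p = 0.000136 and 0.0152), and that of NR4A2 was lost with median scaling (adjusted p = 0.0550). With normexp background correction the log2 changes of these dim probes were larger, at 1.31 for VGF, 1.27 for GEM and 0.71 for NR4A2, each still called. The 4 tested targets that did not pass were DUSP1, NFIL3, IRS2 and RGS2, with log2 differences of 0.05 to 0.22. FOS, FOSB and JUNB are also induced by growth factor and MAP kinase signalling. Which signal raised any of the 6 called targets was not tested. The list was drawn up with results of these arrays known, so its count is no independent evidence of a direction.

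Of the 10 tested targets, 8 had a promoter window, and 7 of these held a half-site and 2 a whole CRE, against 28.4% and 2.25% of all genes. Among the 8, 4 of 4 called and 3 of 4 uncalled targets held a half-site, and 1 of each 4 (VGF and DUSP1) a whole CRE. The genes were listed as known targets of cyclic AMP and CREB, so their share beside that of all genes is no independent evidence. GEM and NR4A2 had no window. The stretches around the match in the 4 called targets are printed for comparison with GPR3, with capitals marking the match: chr7:101165611-101165678 on the minus strand for VGF, chr14:75278734-75278801 on the plus strand for FOS, chr19:45467906-45467973 on the plus strand for FOSB and chr19:12791319-12791386 on the plus strand for JUNB.
VGF: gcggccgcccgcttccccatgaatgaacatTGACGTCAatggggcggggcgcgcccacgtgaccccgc
FOS: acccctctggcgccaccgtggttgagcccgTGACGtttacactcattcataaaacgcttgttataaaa
FOSB: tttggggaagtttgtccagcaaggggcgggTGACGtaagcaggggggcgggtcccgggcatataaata
JUNB: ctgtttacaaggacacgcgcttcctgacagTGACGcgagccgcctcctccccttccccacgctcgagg

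VGF shared the whole CRE, with its first base at -79, with GPR3 and CREM. FOS, FOSB and JUNB had half-sites at -64, -60 and -137. A match of letters is a description and does not show that a factor was bound there.

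Receptors that act as GPR3 does, through the stimulatory G protein, showed no call: of 18 listed, 6 were tested, 0 were higher and 0 lower, with a median log2 difference of 0.06. The smallest unadjusted p was that of PTH1R, the parathyroid hormone receptor (log2 difference -0.20; adjusted p = 0.152 by limma), which was detected on 2 of 6 mutDFNA5 and 3 of 5 wtDFNA5 arrays. It was the one receptor with an unadjusted p under 0.05.

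Among 29 genes of cyclic AMP synthesis and breakdown, 12 were tested, 2 were higher and 0 lower, with a median of 0.04. They were PDE4C, a phosphodiesterase of the same subfamily as PDE4B and PDE4D (log2 change 0.43; adjusted p = 0.0153), and ADCY9, an adenylyl cyclase (0.32; adjusted p = 0.0355 by limma). PDE4C averaged 12.40 ± 0.12 in mutDFNA5 cells (SD, n = 6) and 11.97 ± 0.30 in wtDFNA5 cells (SD, n = 5), and its groups overlapped. Both calls were lost with normexp background correction (adjusted p = 0.0697 and 0.0698), that of PDE4C also without wtDFNA5 replicate 2 (adjusted p = 0.0520). That of ADCY9 was lost too with median scaling (adjusted p = 0.0516 by limma) and with no filter (adjusted p = 0.0637). Leaving out replicate 1 or 2 of either group, wtDFNA5 replicate 3 or mutDFNA5 replicate 5 also lost it, with adjusted p up to 0.0903.

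PKA, its anchoring proteins and the exchange factors activated by cyclic AMP had 21 listed genes and 14 tested, with 1 higher, 1 lower and a median of -0.02. PKIA, a peptide inhibitor of the PKA catalytic subunit, was lower in mutDFNA5 cells (log2 change -0.38, adjusted p = 0.0136 by limma). A second PKIA probe gave -0.38 (adjusted p = 0.00862 by limma). The call of the brightest PKIA probe was lost with median scaling (-0.28; adjusted p = 0.251). AKAP13, a PKA anchor, was higher by 0.24 (adjusted p = 0.0454), a call lost under 13 of its 18 alternatives, 9 of them the omission of 1 array (adjusted p up to 0.102; kept only without wtDFNA5 replicate 2 or mutDFNA5 replicate 2). Probes of 1 gene differed in the call for 2 genes, with the same sign: for PRKAR1A, a regulatory subunit of PKA, the brightest probe gave 0.22 (adjusted p = 0.111) and another 0.43 (adjusted p = 0.0101), and for the anchor AKAP11 they gave 0.15 (adjusted p = 0.320) and 0.31 (adjusted p = 0.0209). Probes of AKAP7 and AKAP12 differed in sign, with none called (-0.15 and 0.02 for AKAP7, and -0.0043, 0.0068 and 0.20 for AKAP12).

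Relatives of the members, namely other CREB and ATF factors, the coactivators CREBBP and EP300, and kinases that act on CREB or on the CRTC proteins, had 17 listed genes and 11 tested, with 0 higher and 0 lower by limma and a median of -0.0044. None of the 11 had an unadjusted p under 0.05. The smallest was that of SIK3, a kinase of the same family as SIK1 (log2 difference 0.11, 95% confidence interval -0.05 to 0.28; adjusted p = 0.418 by limma).

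**Figure D5:**
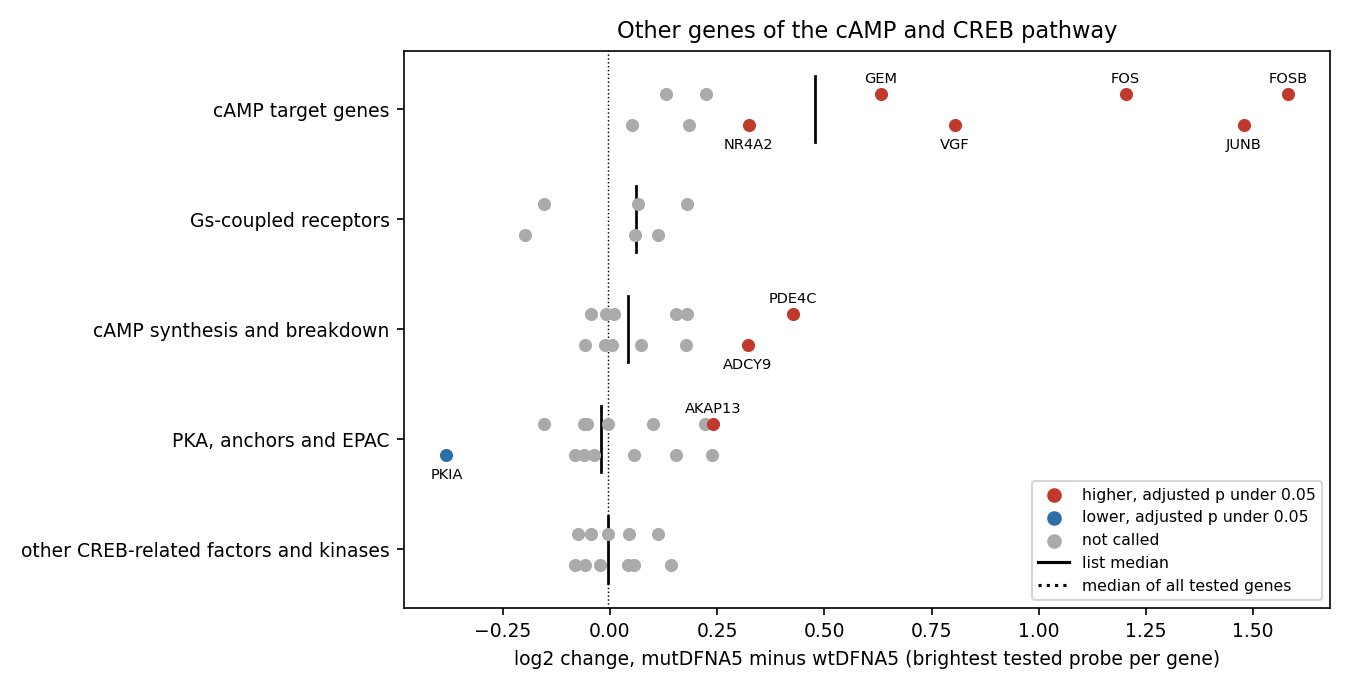
Log2 change, mutDFNA5 minus wtDFNA5 (horizontal axis), of each tested gene in the 5 pathway lists, with called genes named in red (higher) or blue (lower), list medians as black bars and the median of all tested genes dotted. The target genes reach 1.58 (FOSB) and have a median of 0.48, and the medians of the other 4 lists lie between -0.02 and 0.06.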

How the data were processed

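The arrays used here hold cRNA amplified from total RNA of 6 mutDFNA5 and 5 wtDFNA5 transfections, hybridised to beadchips with 1 array per sample. The study reports 6 replicates per group, of which 1 wtDFNA5 sample was dropped at quality control. Groups were taken from the labels, whose titles call the mutDFNA5 samples KO although their characteristics give mutant DFNA5. The authors deposited log2 signals per probe that were not normalized between arrays, with detection p-values deposited beside them, and a quantile-normalized log2 table. Their methods name beadarray, quality control, quantile normalization and limma (version 3.24.4 in the submitters' processing notes), and no background correction.

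Quantile normalization of the signals was repeated here in R 4.3.3 (limma 3.58.1), and the values differed from the deposited normalized table by at most 0.0191. No 2 arrays held identical values. A probe was tested if 5 or more of the 11 arrays had a detection p under 0.01 (14542 of 42000). The comparison was mutDFNA5 minus wtDFNA5 in a limma fit with moderated two-sided tests, no covariate and Benjamini-Hochberg adjustment over all tested probes. The fit was also run on simulated independent normal values, a setting simpler than these data, so that run lends no support to the results here. The number of arrays limits the precision. Quantile normalization removes any shift shared by most transcripts. The difference between CREB1 probes was tested by exact permutation.

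Probes were named by a platform annotation for a later beadchip version than the methods name, updated through the RefSeq table of GRCh38.p14: 27916 probes had 1 symbol, 7 several and 14077 were not listed. The text names all members, up to 4 called genes per list with the largest change or else the smallest p, DUSP1, NFIL3, IRS2, RGS2, PRKAR1A, AKAP7, AKAP11, AKAP12, GEM and NR4A2 as exceptions chosen after their values were seen, the 3 genes most correlated with the leading member probe under 2 measures, and GSDME. Members and lists were chosen with earlier results of these data known. Alternatives were normexp background correction (offset 16), median scaling, the deposited normalized table, other filters, a trended and robust prior, the replicate number as a block, the mean of a gene's probes and each array left out. For the CREB1 probe pairs they were chosen after seeing the data.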

Additional observations from a re-analysis of the deposited data

Results flagged for a closer look

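For CRTC1, mutDFNA5 replicate 5 stood apart with a normalized log2 signal of 8.709, the next mutDFNA5 array being at 8.283 and the lowest at 8.092. Its gap took up 0.69 of the group's range, above Dixon's 95% critical value for 6 arrays. It was the 1 group flagged among the 28 groups of member probe values examined, and chance flags about 1 in 20 groups.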

How the results depend on the processing

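The call of GPR3 was kept under all 18 alternatives, with log2 changes of 0.999 to 1.71 and adjusted p up to 2.09e-06. The member count of 1 higher probe became 2 with normexp background correction and with probes detected on all 11 arrays, SIK1 being added (0.53 and 0.23). The count of 0 lower ranged from 0 to 1 over left-out arrays, where the change of CREB1 probe ILMN_2334242 ran from -0.40 to -0.22, and that of CRTC1 from -0.031 to 0.091. The difference between CREB1 probes ILMN_2334243 and ILMN_2334242 passed with normexp (0.54) and median scaling (0.52) and ranged from 0.44 to 0.62 over left-out arrays. That between ILMN_2334243 and ILMN_1841334 passed with normexp (0.31) and median scaling (0.29), and that between ILMN_2334242 and ILMN_1841334 ranged from -0.32 to -0.18 over left-out arrays and passed without mutDFNA5 replicate 3.

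Over all probes, 569 were higher and 627 lower, against 376 and 72 with median scaling, where the median change of all probes was 0.07. Without the filter 400 were lower. Genes of cyclic AMP synthesis and breakdown called higher (2) numbered 0 with normexp, 1 with median scaling, 1 with no filter and 0 to 2 over left-out arrays. PKA genes called higher (1) numbered 0 with median scaling, no filter or a trended and robust prior, 3 with the mean of a gene's probes and 0 to 2 over left-out arrays, and those called lower (1) numbered 0 with median scaling. Target genes called higher ranged from 4 to 7. The cause of these shifts was not tested.

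Replicate numbers did not pair the arrays: same-number correlations of deviations ran from -0.06 to 0.11, and 1 of 5 numbers correlated best with its own. With the replicate number as a block, 374 probes were higher and 388 lower, and 0 PKA genes were higher. Signals close to background limit CREM, PDE4B and PDE4D, which could not be tested.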
